A study of Homo sapiens with 6 samples.

Results

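The genes described here are 41 members of the glycolysis and hypoxia programme, taken from a fixed list of gene symbols and found in the count table by their gene names, among 20020 genes in all. They cover glucose uptake and the glycolytic enzymes (19 genes), the handling of lactate and pyruvate (6 genes), the subunits and regulators of the hypoxia-inducible factors, or HIFs (6 genes), and known HIF targets (10 genes). After removal of genes with low counts, 40 of the 41 were tested among 12925 genes, and CA9 was the member that did not pass.

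The RNA-seq compared HCT116 cells, an established human colorectal carcinoma line, with and without caspase-activated DNase (CAD), the nuclease encoded by the gene DFFB. The CAD-KO+IR group (3 libraries) is a stable CRISPR knockout line and the sgVec+IR group (3 libraries) its vector control. The sample labels give the cell line and the genotype, and the irradiation with 8 Gy and the harvest after 24 h come from the study's text. Both groups were irradiated and none of the 6 libraries is from cells without irradiation, so the comparison is of the knockout under IR, not of IR itself. The knockout is represented by a single line, and no source used here says whether the libraries of a group came from separate cultures, so the p-values measure the spread between these libraries, which may be technical.

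In glycolysis, glucose enters the cell through transporters such as SLC2A1 and is converted by a chain of enzymes to pyruvate, which lactate dehydrogenase can turn into lactate. HIF-1 and HIF-2 are transcription factors made of an oxygen-regulated alpha subunit (HIF1A or EPAS1) and the constant partner ARNT. With oxygen present, the EGLN prolyl hydroxylases mark the alpha subunits for VHL, which directs their degradation, so HIF activity is set largely at the protein level, which mRNA counts do not show. Colorectal carcinoma cells in culture commonly run glycolysis at a high rate even with oxygen present.

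Totals per library ran from 14032994 to 19574144 counts, and the 3 CAD-KO+IR libraries were deeper than the 3 sgVec+IR libraries (p = 0.1, two-sided exact permutation test, the smallest p that 3 against 3 can give). DFFB itself, the check of the labels, was measured at 10.03, 10.1 and 12.4 CPM (counts scaled to library size by TMM) in CAD-KO+IR and at 21.8, 22.9 and 20.9 CPM in sgVec+IR, with no overlap (log2 fold change -1.02, SE 0.193, adjusted p = 0.550 by edgeR's quasi-likelihood test, adjusted after Benjamini-Hochberg, and 0.00187 in DESeq2). Each of the 8 epithelial markers was above 10 CPM in every library, and so was 1 of the 5 fibroblast markers, COL1A1 (10.9 to 47.8 CPM). The other fibroblast markers reached at most 1.41 CPM. The summed levels reached at most 1.16 CPM for the immune, 48.9 CPM for the fibroblast and 6.07 CPM for the endothelial markers. In each group 1 library stood apart. The library sgVec+IR replicate 3 had 7561 genes at 0, against 4577 to 5232 in the other 5, and correlated with the other sgVec+IR libraries at r = 0.886 to 0.890 across genes, against 0.993 between those. CAD-KO+IR replicate 2 correlated with its group at 0.969 and 0.975, against 0.993. Results that rest on these libraries are given below with and without them, a choice made after seeing the data.

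The members took 1.27% ± 0.143 (SD, n = 3) of all counts in CAD-KO+IR and 1.27% ± 0.175 (SD, n = 3) in sgVec+IR, a difference of 0.000803 percentage points (p = 1, two-sided exact permutation test). Within that share, 4 enzymes dominated. ENO1, the ubiquitous enolase, held 21.0% of the members' counts on average, GAPDH 14.7%, the pyruvate kinase PKM 14.5% and the lactate dehydrogenase LDHA 8.49%.

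Levels were compared between genes per length of exon, as CPM per kb. The length counts all exons annotated to a gene (2700 bp for TPI1 and 8571 bp for PKM). It can exceed that of the transcripts present, so the order of genes depends on it. GAPDH stood highest in sgVec+IR at 640 CPM per kb, followed by ENO1 at 498, the triosephosphate isomerase TPI1 at 206 and PKM at 203. LDHA, the phosphoglycerate mutase PGAM1, the glucose transporter SLC2A1 and the phosphoglycerate kinase PGK1 lay between 168 and 101 CPM per kb. On this scale TPI1 and PKM did not differ beyond their spread over the libraries, and neither did LDHA and PGAM1. Not divided by length, PKM was at 1741 CPM and TPI1 at 557 CPM in sgVec+IR. ENO2, the neuronal enolase, was at 4.42 CPM per kb, and the transporter SLC2A3 at 0.502 against 116 for SLC2A1. HK1 and HK2, which both phosphorylate glucose, were at 25.3 and 23.7 CPM per kb.

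**Figure D1:**
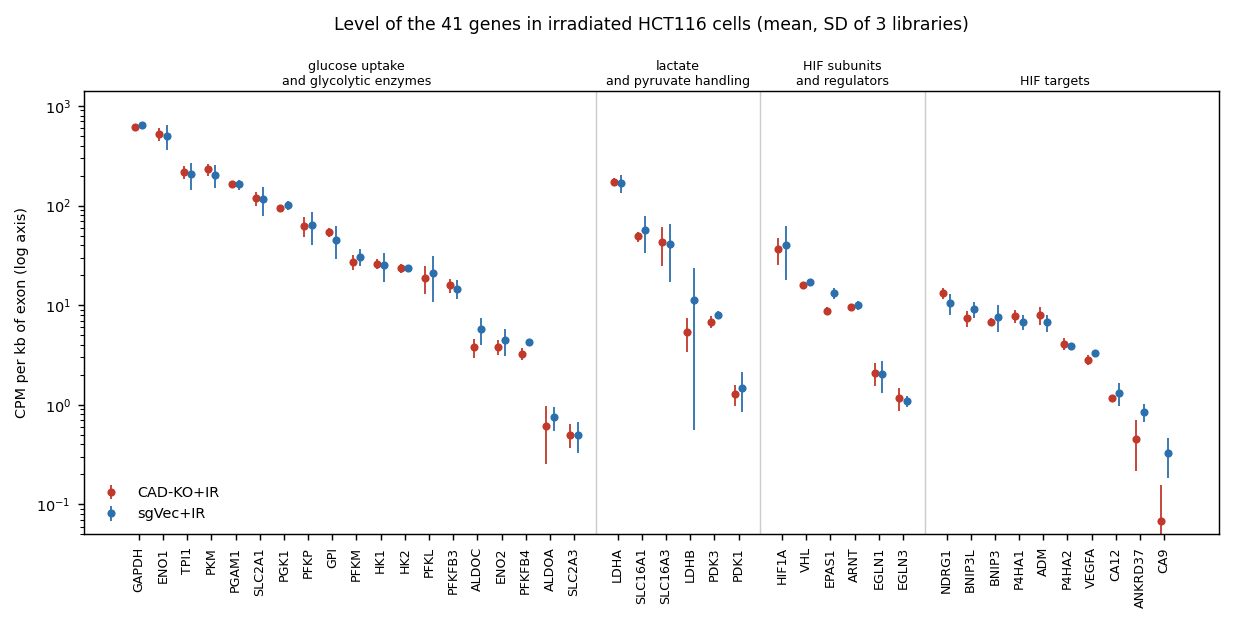
Level of the 41 genes by role in CPM per kb of exon (log axis), with points for the mean and bars for the SD of the 3 libraries of each group (the lower bar of CA9 in CAD-KO+IR runs off the axis). GAPDH at 610 and 640 and CA9 at 0.0676 and 0.325 mark the ends, and the bars of the 2 groups overlap for most genes.

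Among the HIF genes, HIF1A stood at 40.4 CPM per kb in sgVec+IR, VHL at 16.9, EPAS1 at 13.3 and ARNT at 9.95, with the hydroxylases EGLN1 and EGLN3 lowest at 2.04 and 1.10. Of the HIF targets the highest was NDRG1, a stress-induced protein, at 10.5 CPM per kb in sgVec+IR. CA9, the membrane carbonic anhydrase that is a classical marker of hypoxic tumour cells, was near the limit of detection with 1, 0 and 5 counts in the CAD-KO+IR libraries and 5, 8 and 11 in the sgVec+IR libraries, and no fold change is given for it. Some levels are uncertain because reads can be shared with other genes. ALDOA at 0.757 CPM per kb is far below the other ubiquitous enzymes, and 42.3% of its exon bases lie in another gene of the same strand that is also in the table, as do 33.4% of those of LDHB. On the opposite strand, 38.5% of the exon bases of CA9 and 35.2% of those of ANKRD37 overlap another gene, and whether the counting used strand is not given in the sources used here. For PGAM1, 28.0% of the 75-base stretches of its transcripts also occur in 5 other genes.

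None of the 40 members tested passed the study's thresholds of a fold change of 1.5 or more together with an adjusted p below 0.05 in edgeR's quasi-likelihood test. In the whole table these thresholds were passed by 0.00774% of the genes as higher and 0.0232% as lower in CAD-KO+IR. The study used them with DESeq2 and reported far more genes than edgeR or DESeq2 called here. The reason for that gap was not tested, so the absence of members is not set against the study's own list. At an unadjusted p under 0.05, 1 member was lower, EPAS1, and 0 were higher, where 1.76% of all genes were lower and 1.08% higher, so that the members' 2.5% was near the background. DESeq2, run without the filter, also called 0 members, where 0.245% of its 16728 genes were called in either direction. It had 1 member (2.5%) at an unadjusted p under 0.05, where 3.06% of the 12925 genes past the filter were, so this was near the background too. Of the 40, 17 had a positive and 23 a negative log2 fold change, with a median of -0.07 against -0.01 over all genes tested, and the values ran from -1.05 for LDHB to 0.33 for NDRG1.

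The depth and spread of these libraries set what could be seen. The 95% intervals of the members' log2 fold changes had a median half-width of 0.573, and 39 of 40 included 0. For 8 members the whole interval lay within 1.5-fold either way, and for the other 32 a change of that size lay within the interval.

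**Figure D2:**
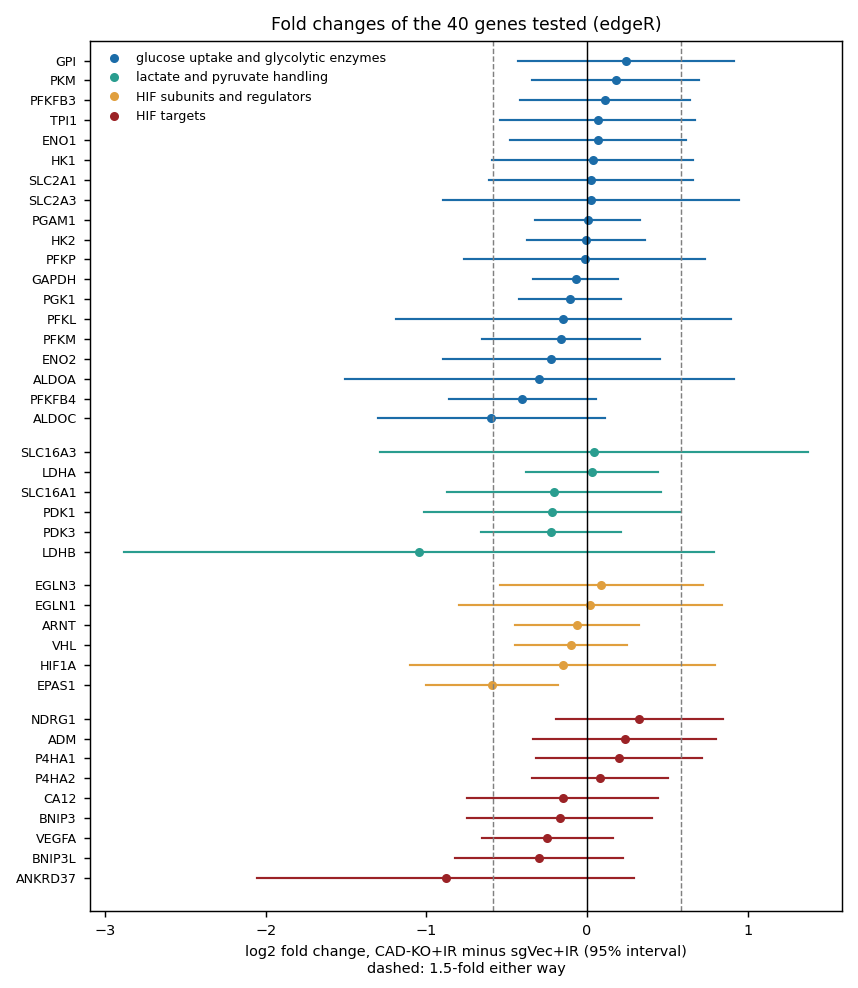
Log2 fold change of CAD-KO+IR over sgVec+IR for the 40 genes tested, with the 95% interval from edgeR, ordered by role (solid line, 0; dashed lines, 1.5-fold either way). The interval of EPAS1 (-1.0 to -0.18) is the one that leaves out 0, and LDHB and SLC16A3 have the widest intervals.

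Counted without a test, 5 members had all 3 CAD-KO+IR libraries below all 3 sgVec+IR libraries, namely EPAS1, PFKFB4, VHL, ANKRD37 and VEGFA, which is 12.5% of the members where 5.01% of all genes did so. In the opposite direction it was 0 members, where 5.23% of all genes did so. By the roles of the list, 2 of the 5 are HIF subunits or regulators, 2 are HIF targets and PFKFB4 is a glycolytic regulator. A separate list of other HIF and hypoxia targets (34 tested) did not lean the same way. It had 6 higher (17.6%) and 3 lower (8.82%) without overlap. VHL left this set with the scalings of DESeq2 or RLE, without a filter on low counts and with a correction for GC content. VEGFA left it without a filter.

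EPAS1, the alpha subunit of HIF-2, was measured at 69.3, 59.3 and 64.6 CPM in CAD-KO+IR and at 104, 105 and 82.1 CPM in sgVec+IR. The highest knockout library lay below the lowest control library. In bulk RNA, less EPAS1 in every cell and fewer cells that express it cannot be told apart. Its log2 fold change was -0.59 (SE 0.173, unadjusted p = 0.0114, adjusted p = 1 by edgeR's quasi-likelihood test). Each library that stood apart was the lowest of its group for EPAS1, and without both the log2 fold change was -0.63 (SE 0.0728, adjusted p = 2.67e-09 in edgeR). In that fit of 4 libraries EPAS1 and ALDOC were the members past the thresholds, as were 3.37% of all genes. With a correction for GC content the log2 fold change of EPAS1 was -0.60 (adjusted p = 0.0273 in edgeR), the 1 member past the thresholds where 0.325% of all genes passed, and limma-voom with sample weights gave -0.67 (adjusted p = 3.1e-05), where 5.15% of all genes passed. The gene EPAS1 is annotated at chr2:46293667-46386703 (GRCh38, forward strand), and no other gene of the table overlaps its exons.

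HIF1A, the alpha subunit of HIF-1, was at 152, 252 and 157 CPM in CAD-KO+IR and 144, 138 and 342 CPM in sgVec+IR. The 2 groups overlapped, and the high value in each came from the library that stood apart. Its log2 fold change was -0.15 (SE 0.401), and without both of those libraries it was 0.14 (adjusted p = 0.127 in edgeR), the opposite sign. VHL, which targets the alpha subunits for degradation, was at 69.3, 63.8 and 66.8 CPM in CAD-KO+IR and 69.5, 73.5 and 70.9 CPM in sgVec+IR. The nearest values of the groups, 69.3 and 69.5 CPM, changed places once libraries were scaled by DESeq2's size factors, and the log2 fold change was -0.10 (SE 0.147). ARNT (log2 fold change -0.06), EGLN1 (0.02) and EGLN3 (0.09) had intervals that included 0.

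Of the HIF targets, ANKRD37, a small ankyrin-repeat protein, was at 1.41, 0.475 and 1.65 CPM in CAD-KO+IR and 1.90, 1.92 and 2.68 CPM in sgVec+IR. The groups did not overlap, but the level was low and the log2 fold change of -0.88 (SE 0.494) moved to -0.31 without both libraries that stood apart. VEGFA, the growth factor of blood vessels, was at 44.7, 35.5 and 41.3 CPM against 47.9, 51.1 and 45.1 CPM in sgVec+IR. The groups did not overlap, with 44.7 and 45.1 CPM as their nearest values, and the log2 fold change was -0.25 (SE 0.172, 95% interval -0.65 to 0.16).

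The mitophagy receptor BNIP3 was at 33.7, 39.6 and 35.8 CPM in CAD-KO+IR and 33.0, 34.6 and 55.1 CPM in sgVec+IR, with overlap (log2 fold change -0.17, SE 0.243). NDRG1 was at 144, 112 and 130 CPM against 115, 118 and 74.9 CPM, the highest positive value among the members (0.33, SE 0.221), with replicate 2 of CAD-KO+IR inside the control range. The remaining targets lay between -0.30 for BNIP3L, a mitophagy receptor, and 0.24 for ADM, the peptide adrenomedullin. The collagen prolyl hydroxylases P4HA1 and P4HA2 were at 0.20 and 0.08 and the carbonic anhydrase CA12 at -0.15. Over the 9 targets tested the median was -0.15, with 4 positive and 5 negative. Its sign turned on sgVec+IR replicate 3, and the median was 0.07 without that library and 0.04 without both that stood apart, each with 6 positive and 3 negative.

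**Figure D3:**
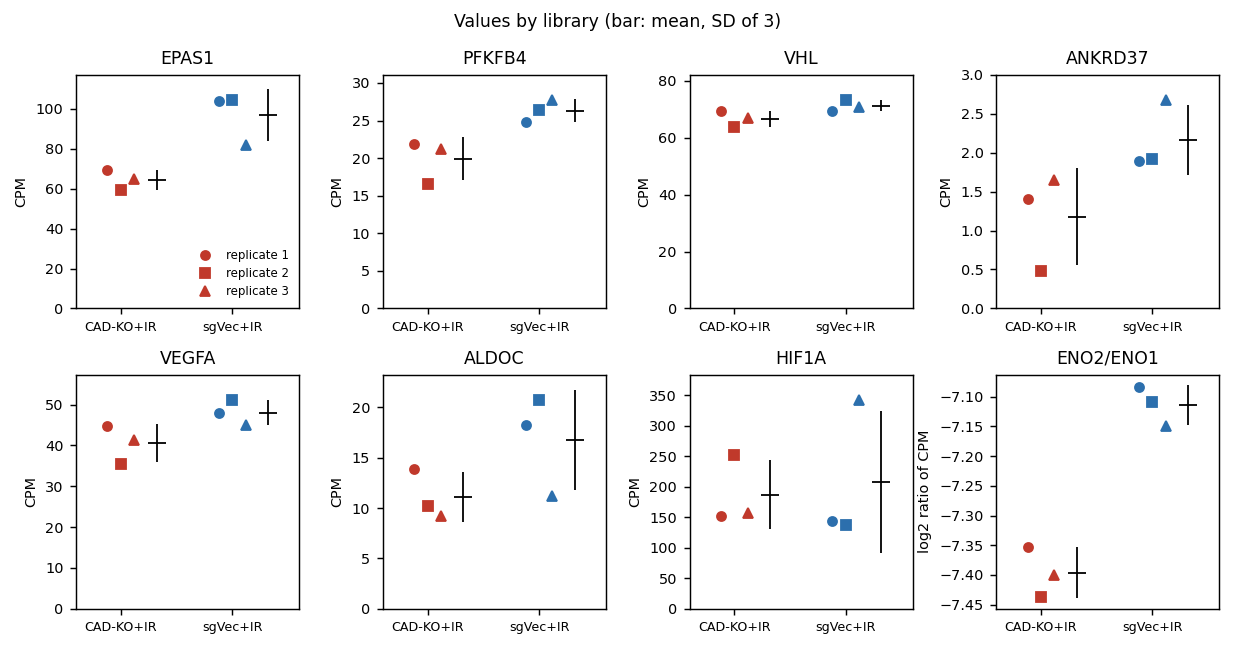
CPM by library for 7 genes and the log2 ratio of ENO2 to ENO1 (red, CAD-KO+IR; blue, sgVec+IR; marker shape, replicate number; black bar, mean and SD of 3). In HIF1A the replicate 2 square of CAD-KO+IR at 252 and the replicate 3 triangle of sgVec+IR at 342 sit far above the rest, while in EPAS1 and the ENO2/ENO1 ratio the groups separate in all libraries.

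The glucose transporters and glycolytic enzymes had 9 positive and 10 negative log2 fold changes and a median of -0.01 over all 19. This even split rested on sgVec+IR replicate 3, since without it 2 were positive and 17 negative with a median of -0.15, and 10 of the 19 (52.6%) were lower without overlap, where 23.6% of all genes were. Without both libraries that stood apart 8 were positive and 11 negative (median -0.05). Among those 4 libraries 10 of the 19 (52.6%) were still lower without overlap, where 28.8% of all genes were. Another 2 (10.5%) were higher without overlap, where 28.5% of all genes were. SLC2A1, the main glucose transporter, was at 618, 449 and 604 CPM in CAD-KO+IR and 653, 641 and 347 CPM in sgVec+IR (log2 fold change 0.03, SE 0.269). GAPDH was at 1936, 1704 and 1811 CPM against 1952, 1970 and 1802 CPM (-0.07, SE 0.111), and with a 95% interval of -0.33 to 0.19 it was among the best determined members. PGK1 was at 523, 509 and 519 CPM against 527, 513 and 628 CPM (-0.10, SE 0.135). In GAPDH and PGK1 the groups overlapped and the whole interval lay within 1.5-fold. ENO1, the member with the most counts, was at 3066, 2305 and 2885 CPM against 3101, 3004 and 1778 CPM (0.07, SE 0.231), and the lowest value of each group again came from the library that stood apart.

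ALDOC, the aldolase best known from brain, had the lowest log2 fold change in this role, with 13.9, 10.2 and 9.22 CPM in CAD-KO+IR and 18.3, 20.7 and 11.2 CPM in sgVec+IR. Replicate 3 of sgVec+IR lay within the knockout range. The log2 fold change was -0.60 (SE 0.298, adjusted p = 1 in edgeR's quasi-likelihood test), and it was -0.74 without both libraries that stood apart (SE 0.146, adjusted p = 0.000192 in edgeR) and -0.94 in limma-voom with sample weights (adjusted p = 0.001). PFKFB4, a bifunctional enzyme that makes and breaks down an activator of phosphofructokinase, was at 21.9, 16.6 and 21.2 CPM against 24.8, 26.4 and 27.8 CPM. All 3 knockout libraries were lower, and the log2 fold change was -0.40 (SE 0.193, unadjusted p = 0.0752) and -0.24 without both libraries that stood apart. The phosphofructokinases, which catalyse the committed step, were at -0.15 for PFKL, -0.16 for PFKM and -0.01 for PFKP. The other enzymes lay between -0.30 for ALDOA and 0.24 for GPI, the isomerase after the hexokinases.

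In the handling of lactate and pyruvate, LDHA was at 1003, 1182 and 1012 CPM in CAD-KO+IR and 942, 900 and 1288 CPM in sgVec+IR, and the groups overlapped (log2 fold change 0.03, SE 0.174). LDHB, the isoform that favours lactate oxidation, was at 12.2, 22.9 and 12.9 CPM against 10.6, 12.4 and 76.9 CPM. A single library, sgVec+IR replicate 3, made its log2 fold change of -1.05 (SE 0.777), which was 0.49 without that library. The kinases PDK1 and PDK3, which inhibit pyruvate dehydrogenase, were at -0.22 each, and the monocarboxylate transporters SLC16A1 and SLC16A3 at -0.20 and 0.04. The median over the 6 genes was -0.21, and it was 0.18 without sgVec+IR replicate 3.

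The spread among the members within a group followed these 2 libraries. The median coefficient of variation of the members was 14.6% in CAD-KO+IR and 24.4% in sgVec+IR. In sgVec+IR replicate 3, the difference of a member's log2 CPM from the mean of replicates 1 and 2 went with the GC content of its longest transcript (Pearson's r = -0.672, Spearman's rho = -0.697 across 40 genes of the same libraries, given as a description; -0.614 and -0.715 across all genes). In CAD-KO+IR replicate 2 the corresponding values were -0.564 and -0.652 (-0.761 and -0.809 across all genes). The 2 differences had the same sign in 34 of 40 members.

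Members with under 45% GC, which include HIF1A, LDHA, PGK1 and SLC16A1, had a median difference of 0.45 in sgVec+IR replicate 3, and those above 55%, which include SLC16A3, PFKL, TPI1 and GAPDH, one of -0.81. Examples are SLC16A3, a lactate exporter with 62.7% GC, at 119 CPM in that library against 486 and 514 CPM in the other controls, and HIF1A, with 36.4% GC and 342 CPM against 144 and 138 CPM. LDHB, with 46.5% GC, lay above this trend. Between sgVec+IR replicates 1 and 2 the correlation with GC content was -0.126 (rho = -0.268). Whether GC content itself or another property of these libraries set the pattern was not tested.

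**Figure D4:**
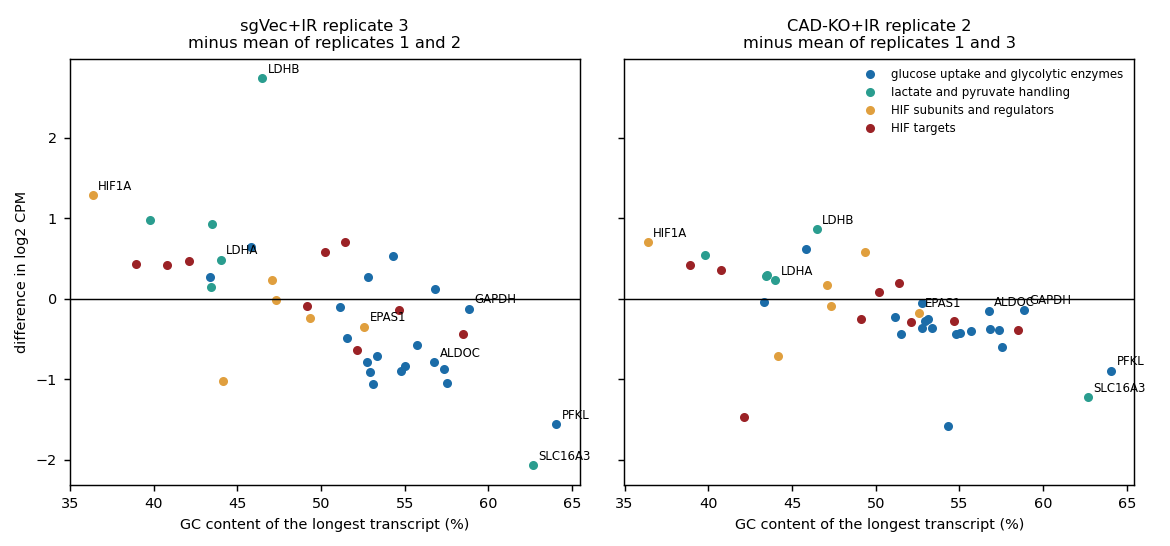
Difference in log2 CPM of sgVec+IR replicate 3 (left) and CAD-KO+IR replicate 2 (right) from the mean of the other 2 libraries of the group, against GC content in percent, 1 point per gene coloured by role. Points fall from left to right in both panels, from HIF1A at the upper left to SLC16A3 and PFKL at the lower right.

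Leaving out sgVec+IR replicate 3 changed the sign of 16 of the 40 log2 fold changes, and leaving out both libraries that of 15. Over all 18 alternatives, 14 members kept their sign. Of these, 11 were lower in CAD-KO+IR (PFKM, PFKFB4, ALDOC, GAPDH, ENO2, PDK3, EPAS1, VHL, BNIP3L, ANKRD37 and VEGFA) and 3 higher (NDRG1, ADM and P4HA1). Without sgVec+IR replicate 3, 19 members did not overlap between the groups. The 14 lower ones were 35% of the members, where 23.6% of all genes were lower without overlap, and the 5 higher ones 12.5%, where 21.9% of all genes were higher. Without both libraries it was 24 members, with 17 lower (42.5%, against 28.8% of all genes) and 7 higher (17.5%, against 28.5%).

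**Figure D5:**
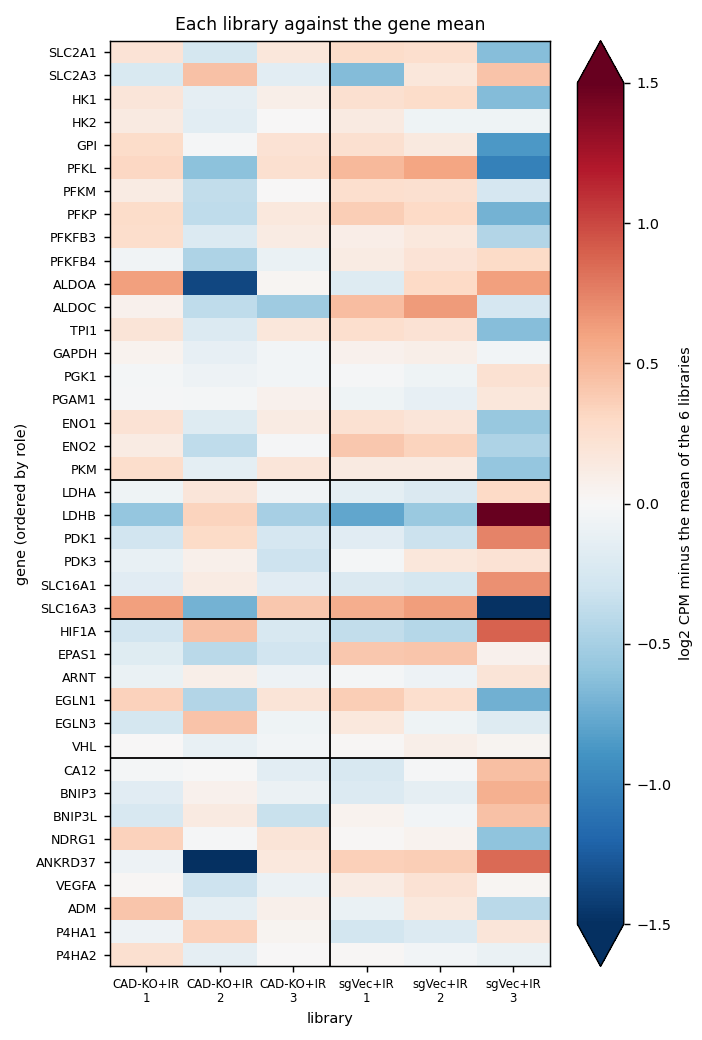
Log2 CPM of each library minus the mean of the 6 libraries for the 40 genes tested (red, above the mean; blue, below; colours end at 1.5). Replicate 3 of sgVec+IR has deep colours, red for LDHB and HIF1A and blue for SLC16A3 and PFKL. For most genes replicate 2 of CAD-KO+IR shows a paler form of the same pattern. ANKRD37 and ALDOA are exceptions, deep blue in that library and red in replicate 3 of sgVec+IR.

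A ratio of 2 genes within a library does not depend on its depth, and 15 pairs of isozymes or paralogs were compared in this way. None had an adjusted p below 0.5, and none could go below 0.1, the smallest exact p. The ratio of ENO2 to ENO1 was the most even one within the groups. On the log2 scale it was -7.35, -7.44 and -7.40 in CAD-KO+IR and -7.08, -7.11 and -7.15 in sgVec+IR. The groups did not overlap, and the 2 libraries that stood apart lay with the others of their group. The difference was -0.28 with a pooled SD of 0.0381 (p = 0.1, exact permutation test, adjusted p = 0.5), and it was -0.30 without sgVec+IR replicate 3. ENO2 by itself had a log2 fold change of -0.22 (SE 0.286).

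PFKFB4 to PFKFB3, both regulators of glycolytic flux, did not overlap either, with a difference of -0.53 (p = 0.1, exact permutation test, adjusted p = 0.5), and -0.30 without sgVec+IR replicate 3. CA12 to CA9 was higher by 1.51 in CAD-KO+IR, but rests on the few counts of CA9. For EPAS1 to HIF1A the log2 ratio was -1.13, -2.08 and -1.28 against -0.47, -0.39 and -2.06. The groups overlapped through sgVec+IR replicate 3, and the difference of -0.53 was -1.07 without it. For HK2 to HK1 the difference was -0.10, for LDHB to LDHA -0.54 and for SLC16A3 to SLC16A1 0.35, each smaller than the pooled SD of its ratio. All 3 changed sign without sgVec+IR replicate 3, to 0.17, 0.21 and -0.65.

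HIFs bind DNA at a short core, and the letters ACGTG, read on both strands (as ACGTG or CACGT, which overlap in CACGTG), were searched in windows from 250 bases before to 50 after the gene start, taken from RefSeq on GRCh38.p14. The core also occurs as GCGTG, a form that was not searched. Of the 41 members 35 had at least 1 window, and 20 of these (57.1%) held the letters in at least 1 window, against 24.9% of all genes with a window and 32.2% of the genes tested here. Genes with more windows have more chances of a match, and 11 members had more than 1. Counted per window, 24 of the members' 62 (38.7%) held the letters, against 21.4% of all windows and 25.1% of those of the genes tested. SLC2A3, SLC16A1, VHL, BNIP3L, NDRG1 and VEGFA had no entry. Members with the letters had a median log2 fold change of -0.07 (7 of 19 positive) and members without them 0.00 (8 of 15 positive), given as a description.

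Stretches of 3 of these windows, each ending before the first GENCODE exon that falls inside the window, are shown because PGK1 and LDHA are textbook HIF targets whose whole 95% interval lay within 1.5-fold and EPAS1 was the member with the smallest p. Capitals mark the letters ACGTG or CACGT, and each is read 5′ to 3′ on the forward strand. The RefSeq starts used for PGK1 and EPAS1 lie downstream of the outermost start in GENCODE (chrX:77910739-78129296 for the whole PGK1 gene), so that these stretches are within the annotated genes, outside their exons.
PGK1, chrX:78103998-78104173: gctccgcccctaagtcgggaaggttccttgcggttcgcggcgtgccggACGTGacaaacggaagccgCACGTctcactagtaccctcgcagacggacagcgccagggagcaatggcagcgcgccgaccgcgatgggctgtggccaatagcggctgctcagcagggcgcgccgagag
LDHA, chr11:18394313-18394387: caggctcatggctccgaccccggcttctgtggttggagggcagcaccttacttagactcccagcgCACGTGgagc
EPAS1, chr2:46297157-46297401: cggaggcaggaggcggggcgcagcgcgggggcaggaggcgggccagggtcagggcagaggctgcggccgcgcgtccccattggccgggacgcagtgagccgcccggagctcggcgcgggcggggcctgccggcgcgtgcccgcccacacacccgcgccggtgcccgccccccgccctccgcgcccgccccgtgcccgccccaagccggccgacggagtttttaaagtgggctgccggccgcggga
The PGK1 stretch holds 2 matches and the LDHA stretch 1 place with matches on both strands, and none is in the EPAS1 stretch, which says only that these letters are not in it. The corresponding stretch of CA9, 133 bases and not shown, also held 0 matches. The 1 match in the window of CA9 lay at base -18 from the start, outside that stretch. The form GCGTG occurs unmarked in the PGK1 and EPAS1 stretches. A match describes the sequence and not a site bound in these cells.

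The neighbouring genes of the pathways were listed apart from the members. Of 38 other glycolysis and branch genes 29 were tested, with 10 positive and 19 negative values and a median of -0.09. Of 15 other regulators of the HIF pathway 14 were tested (median 0.02), and of 40 other HIF and hypoxia targets 34 (median 0.03, 19 positive and 15 negative). None of these genes passed the thresholds in edgeR. At an unadjusted p under 0.05 it was 1 glycolysis gene (3.45% of those tested), PDK4, and 3 higher and 2 lower hypoxia targets (14.7%), where 2.85% of all genes passed. Without overlap there were 3 higher and 4 lower glycolysis genes (10.3% and 13.8%) and 1 higher and 0 lower HIF regulators (7.14% and 0%). For the hypoxia targets it was 6 higher and 3 lower (17.6% and 8.82%), where 5.23% of all genes were higher and 5.01% lower. PDK4, a pyruvate dehydrogenase kinase, was at 1.68, 3.06 and 2.51 CPM in CAD-KO+IR and 4.22, 3.90 and 4.23 CPM in sgVec+IR, with no overlap (log2 fold change -0.77, SE 0.318, unadjusted p = 0.0470, adjusted p = 1 in edgeR's quasi-likelihood test).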

How the data were processed

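RNA-seq of HCT116 cells gave 6 libraries, 3 of CAD-KO+IR and 3 of sgVec+IR. After read cleaning with fastp, the authors ran featureCounts and deposited its raw counts for each gene, with no normalization. The aligner, the annotation and the use of strand are not given in the sources used here. The submitters' processing notes name mm10, a mouse build, while the gene identifiers are human, so gene identities alone link the counts to positions. Sample titles served as column names.

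The filter was filterByExpr of edgeR, at a minimum count of 10 and a minimum total of 15. Software was R 4.3.3, edgeR 4.0.16, limma 3.58.1 and DESeq2 1.42.0. Library sizes were scaled by TMM, edgeR's quasi-likelihood test (legacy set to FALSE) compared the groups over all genes tested with Benjamini-Hochberg adjustment, and a call needed a 1.5-fold change or more with an adjusted p below 0.05. CPM use the TMM-scaled library size, and ratios of genes are differences of log2 CPM with a prior count of 2. Exon length, GC content and overlaps came from GENCODE release 29 on GRCh38, to which 19823 of 20020 identifiers matched, and start windows from RefSeq. Replicates of a group differed by more than sampling noise (chi-square per gene 2.59 to 158), so none was taken for a library deposited again, although this does not show separate cultures.

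The members, the lists and the rule for named genes were chosen with earlier results of these data known. Values by library are given for members at an unadjusted p under 0.05 or without overlap, for the member with the largest fold change and that with the most counts in each role, for HIF1A, EPAS1, VHL, SLC2A1, GAPDH, LDHA, PGK1, CA9, VEGFA and BNIP3, and for those not tested. From the other lists up to 3 genes with the smallest unadjusted p under 0.05 are named. A gene among these is not reported here. Alternatives changed the tool, scaling, filter, prior count, GC correction (lowess span 0.3), thresholds, replicate block and libraries. The fit without both libraries that stood apart was added after seeing the data. The scripts were tested on simulated data. No molecular identifiers are named in the sources used here, so counts are not numbers of independent molecules.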

Additional observations from a re-analysis of the deposited data

How the results depend on the processing

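The median log2 fold change of the members stayed between -0.10 and -0.03 over all 18 alternatives, and DESeq2, limma-voom, the scalings, the filters and the fold thresholds left the count past the thresholds at 0. It was 2 in limma-voom with sample weights (5.15% of all genes), 1 with the GC correction (0.325%) and 2 without both libraries that stood apart (3.37%). With an unadjusted p and the same fold threshold it was 1 (2.18%). The count at an unadjusted p under 0.05 was 16 with sample weights (37.1% of all genes), 3 with the GC correction (9.93%) and 14 without both libraries (29.7%). With 1 library left out this count ran from 0 to 3. It was 0 without sgVec+IR replicate 1 (2.17% of all genes) or 2 (1.91%) and 3 without replicate 3 (11.9%). The count without overlap was 10 with the GC correction (21.0%), 24 without both libraries (57.3%), and from 5 to 19 with 1 library left out. It was 10 without CAD-KO+IR replicate 2, where 20.1% of all genes did not overlap, and 19 without sgVec+IR replicate 3 (45.4%). The replicate block left 0 members at an unadjusted p under 0.05 (1.13% of all genes). Replicates share only a number here: the correlations of deviations were 0.468, -0.545 and -0.379 for numbers 1, 2 and 3, and CAD-KO+IR replicate 2 deviated most like sgVec+IR replicate 3 (0.552). The cause of these changes was not tested.

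With 1 library left out, 25 members changed sign. Their log2 fold changes ran from -0.21 to 0.18 for SLC2A1, -0.24 to 0.26 for SLC2A3, -0.21 to 0.19 for HK1, -0.064 to 0.065 for HK2, -0.029 to 0.43 for GPI, -0.50 to 0.12 for PFKL, -0.28 to 0.17 for PFKP, -0.055 to 0.23 for PFKFB3, -0.77 to 0.091 for ALDOA, -0.17 to 0.22 for TPI1, -0.049 to 0.10 for PGAM1, -0.15 to 0.21 for ENO1, -0.020 to 0.30 for PKM, -0.057 to 0.21 for LDHA, -1.47 to 0.49 for LDHB, -0.43 to 0.19 for PDK1, -0.36 to 0.18 for SLC16A1 and -0.38 to 0.35 for SLC16A3. They ran from -0.43 to 0.41 for HIF1A, -0.12 to 0.022 for ARNT, -0.24 to 0.23 for EGLN1, -0.14 to 0.24 for EGLN3, -0.29 to 0.066 for CA12, -0.30 to 0.11 for BNIP3 and -0.0095 to 0.17 for P4HA2.

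Sample weights turned SLC2A1 to -0.095, HK1 to -0.15, ALDOA to 0.091, TPI1 to -0.062, ENO1 to -0.066, LDHB to 0.17, SLC16A1 to 0.072, SLC16A3 to -0.15, HIF1A to 0.15, EGLN1 to -0.094, EGLN3 to -0.15, CA12 to 0.0061 and BNIP3 to 0.063. Leaving out both libraries turned SLC2A1 to -0.076, HK1 to -0.12, HK2 to 0.036, ALDOA to 0.30, TPI1 to -0.047, PGK1 to 0.0082, ENO1 to -0.032, LDHB to 0.14, SLC16A1 to 0.077, SLC16A3 to -0.068, HIF1A to 0.14, EGLN1 to -0.037, EGLN3 to -0.21, CA12 to 0.044 and BNIP3 to 0.043. Values near 0 also turned for PFKP (0.028 in limma-voom and 0.031 with the block), HK2 (0.0046 without a filter), SLC2A3 (-0.0060 by library size), EGLN1 (-0.0019 by library size, -0.0038 with the GC correction) and PGAM1 (-0.00015 with RLE, -0.0037 with upper quartile, -0.022 by library size, -0.0027 with the CPM filter, -0.050 with the GC correction).

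The ratio of CA12 to CA9 moved to 2.41 with a prior count of 0.5, and the share of counts on the members differed by -0.10 to 0.08 percentage points with 1 library left out. Counts limit CA9 and ANKRD37, and with 3 libraries against 3 no exact test can go below 0.1.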

Other observations

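Outside the members, the branch of glycolysis that makes ribose held the gene with the smallest p of the lists. PRPS1, which makes phosphoribosyl pyrophosphate for nucleotide synthesis, was measured at 29.7, 31.3 and 29.9 CPM in CAD-KO+IR and at 8.50, 8.08 and 4.02 CPM in sgVec+IR. The groups were far apart in every library. The log2 fold change was 2.13 (SE 0.285, unadjusted p = 0.000141, adjusted p = 0.225 in edgeR's quasi-likelihood test), and DESeq2 gave 2.14 (adjusted p = 2.15e-07). Over the alternatives its adjusted p ran from 1.02e-15, without both libraries that stood apart, to 1. In the same list of 10 pentose phosphate genes, RPIA and RPE, the isomerase and epimerase of ribulose phosphate, were also higher without overlap, at log2 fold changes of 0.23 and 0.26 (unadjusted p = 0.186 and 0.130 in edgeR). With PRPS1 this made 3 of 10 higher without overlap (30%), where 5.23% of all genes were, and the median over the list was 0.07 with 6 positive and 4 negative. The list was drawn up with earlier results of these data known, so this share is given as a description only. The list of 10 genes of the glycogen and hexosamine branch had a median of 0.03 and none without overlap.

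Among the 34 other hypoxia targets tested, GPRC5A, an orphan receptor of epithelia, was at 382, 398 and 410 CPM in CAD-KO+IR and 263, 259 and 246 CPM in sgVec+IR (log2 fold change 0.63, SE 0.127, adjusted p = 0.635 in edgeR's quasi-likelihood test and 0.00278 in DESeq2). Its values were close within each group, the libraries that stood apart included. CCNG2, an atypical cyclin, was at 17.0, 16.9 and 16.9 CPM in CAD-KO+IR and 24.2, 27.7 and 39.7 CPM in sgVec+IR (-0.85, SE 0.235, adjusted p = 1 in edgeR). In both genes the groups did not overlap, with GPRC5A higher and CCNG2 lower in CAD-KO+IR.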
